A study of Mus musculus with 8 samples.

Results

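The genes described are 42 genes of cell division, listed by name: cyclins and kinases of entry into mitosis, the spindle checkpoint, the kinetochore, the mitotic motors, the machinery of cytokinesis and 2 widely used proliferation markers. All 42 had at least 1 probe on the array, 62 probes in all, and 38 were measured above background, out of 19751 genes tested. Transcript levels were read in newborn mouse cortex on 8 one-colour Agilent arrays, 1 per pup, from 4 control pups and 4 ischemia pups. All 8 were C57BL/6NCr males at P1.5, postnatal day 1.5. In the ischemia group clips closed the uterine arteries of the anesthetised mother for 14 min at the embryonic stage E16.5, which interrupts the blood supply of the embryos. A sham operation of control mothers is not mentioned in the labels, nor is the litter of each pup. The p-values measure the spread between the sampled pups of a group. Pups of a group may share a litter, in which case litter and group cannot be told apart. The comparison asks whether this prenatal event left the transcripts of dividing cells at another level several days later.

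Mitosis is started by the kinase Cdk1 bound to B-type cyclins. The spindle checkpoint then holds back the anaphase-promoting complex until each chromosome is attached to the spindle through its kinetochore, after which securin and the cyclins are degraded, separase frees the sister chromatids and the cell is cut apart. Most of these genes are transcribed mainly in late phases of the cell cycle. In the newborn cortex their transcripts come from the cells that still divide, among them progenitors of the germinal zones and glial precursors, while neurons have left the cycle. In whole tissue, fewer cells of a type and less RNA per cell cannot be told apart.

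Transcripts of 35 of the 38 measured genes were lower on average in the ischemia group, and those of the other 3 were higher by at most 0.07 on the log2 scale. Over all genes tested, 57% lay below 0. The median log2 difference, ischemia minus control, was -0.26 over the 38 genes and -0.02 over all genes, with a range from -0.50 for Ccnb2 to 0.07 for Cdc25b. For Ccnb2 the signal in ischemia was 0.707 times that of the controls. No member passed the test: with limma, the adjusted p over all 19751 genes lay between 0.221 and 0.986, and the adjusted threshold of 0.05 was passed by 0.00506% of all genes, a single one. At an unadjusted p under 0.05, 17 of the 38 genes (44.7%) were lower and 0 were higher, against 7.65% lower and 3.25% higher over all genes. The count of 17 was 11 without control replicate 1. Shares of all genes at that p were counted only for the main comparison of all 8 arrays, not for other settings, here and below. All 4 ischemia values lay below all 4 control values in 6 of the 38 genes (15.8%), against 4.28% of all genes. In 0 of the 38 did all 4 lie above, against 2.27% of all genes. The 6 were Ccnb2, Bub1, Cdk1, Birc5, Ect2 and Nusap1. The genes were read from the same 8 RNA samples, so their differences are not independent of each other.

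**Figure D1:**
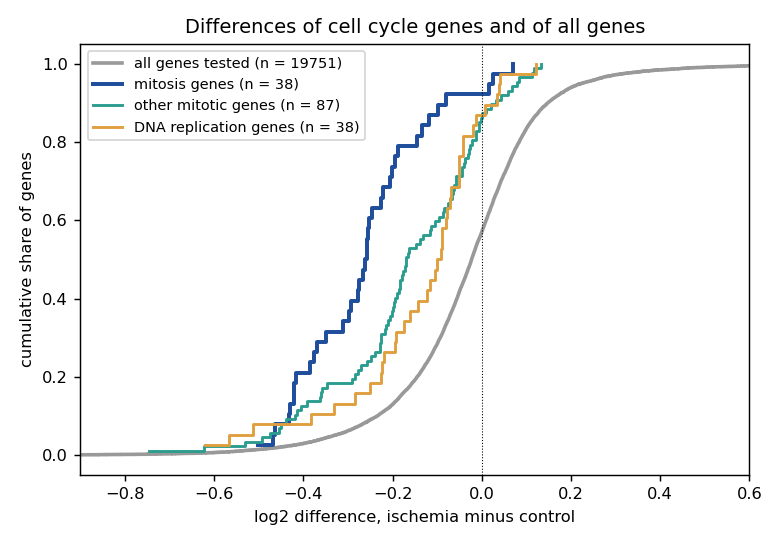
Cumulative share of genes (vertical axis) by log2 difference, ischemia minus control (horizontal axis), for the 38 mitosis genes, 87 other mitotic genes, 38 DNA replication genes and all 19751 genes tested. The curve of the mitosis genes lies to the left of the curve of all genes, with a median of -0.26 against -0.02.

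Between 47.6% and 51.7% of spots per array lay well above background, with 0 saturated. Each control had 134 to 144 outlier spots and each ischemia array 165 to 189, and their part in the differences was not tested. The controls lay on 1 row of the slide and the ischemia samples on another, so row and group cannot be told apart. Of the markers of cortical cells, 10 of 10 of immature neurons, 12 of 12 of radial glia and 8 of 10 of intermediate progenitors were measured. Meningeal markers were measured in 10 of 10 too, so such counts do not tell cortex from its neighbours. Ischemia 4 stood apart in markers of the choroid plexus, a neighbouring tissue. Ttr, its transthyretin, read 6.76 in ischemia 4 and between -4.31 and -1.90 in the other 7 arrays. The meningeal gene Ptgds read 3.04 and 3.48 in ischemia 1 and 4 against -1.16 to -0.01 in the others. Summed signals, in units of the array's 75th percentile, were 2.93 to 3.15 in the controls and 3.03 to 117 in ischemia for the 5 of 9 choroid plexus markers measured (not for Kl, Clic6, Kcne2 and Prlr), and 3.60 to 4.74 and 3.77 to 16.2 for 10 of 10 meningeal markers. Depending on the array, Ttr made up 1.67% to 93% of the choroid plexus sum and Ptgds 10.8% to 72.8% of the meningeal sum. Without ischemia replicates 1 and 4, 37 of the 38 mitosis genes were lower and the median log2 difference was -0.35. Of the 38, 17 then had an unadjusted p under 0.05. The ischemia arrays left are then 2 and 3, and ischemia 3 had the lowest median of these genes relative to the control means, -0.54. Over the 10 meningeal markers that median was -0.14, 0.01, -0.16 and 0.27 in controls 1 to 4. In ischemia 1 to 4 it was 0.99, 0.02, 0.31 and 0.28, so ischemia 3, which was kept, was not below ischemia 4. Ttr read -1.90 in ischemia 3 and -3.56 to -3.21 in the controls. The part of the neighbouring tissues in the median of -0.35 was not tested.

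Promoters of genes of late cell cycle phases are known for 2 short elements, the cell cycle genes homology region (CHR), searched as TTTGAA, and the CCAAT box bound by NF-Y. Promoter windows of 300 bases, 250 before to 50 after the start, were taken from RefSeq in the assembly GRCm38.p6. They were found for 35 of the 42 genes. On either strand, 25 of these 35 genes (71.4%) had the CHR letters, against 20.2% of all 27025 genes of the table and 14.3% of the genes tested. In the lists of other mitotic and of DNA replication genes described below, the CHR share was 45.8% and 12.9%. CCAAT was found in 27 (77.1%), against 41.1% of all genes, 42.4% of those tested, and 59.0% and 61.3% of these 2 lists. Both were found in 22 (62.9%), against 7.97% of all genes, 5.8% of those tested, and 32.5% and 9.68% of the 2 lists. The E2F letters GCGGGAA, an element known from genes of DNA replication, were found in 0 of the 35. They were in 5.29% of all genes, 9.16% of those tested, and 16.9% and 41.9% of the 2 lists. None of the 3 motifs contains another, although matches can share an end base, and a match is a description of letters, not a site of binding. Printed here are 5 promoters, of genes with CHR letters and small p-values, each read 5′ to 3′ on the gene's strand from 250 bases before to 30 after the start, with the CHR letters and CCAAT, on either strand, in capitals (ATTGG is CCAAT on the other strand). They belong to Ccnb2 (chr9:70421525-70421804, minus strand), Cdk1 (chr10:69352883-69353162, minus), Prc1 (chr7:80294201-80294480, plus), Ect2 (chr3:27153849-27154128, minus) and Spc25 (chr2:69206184-69206463, minus).
Ccnb2: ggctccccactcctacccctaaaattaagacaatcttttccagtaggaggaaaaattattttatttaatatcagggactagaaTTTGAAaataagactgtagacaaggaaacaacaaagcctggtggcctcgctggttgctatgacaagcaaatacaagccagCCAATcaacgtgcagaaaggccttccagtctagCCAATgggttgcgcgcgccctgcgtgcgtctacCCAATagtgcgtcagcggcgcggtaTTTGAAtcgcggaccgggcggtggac
Cdk1: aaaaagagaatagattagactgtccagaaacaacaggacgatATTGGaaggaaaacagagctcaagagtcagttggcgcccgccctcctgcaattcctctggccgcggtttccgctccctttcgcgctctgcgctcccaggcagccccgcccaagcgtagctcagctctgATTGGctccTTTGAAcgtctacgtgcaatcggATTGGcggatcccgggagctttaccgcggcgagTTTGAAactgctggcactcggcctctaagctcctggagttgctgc
Prc1: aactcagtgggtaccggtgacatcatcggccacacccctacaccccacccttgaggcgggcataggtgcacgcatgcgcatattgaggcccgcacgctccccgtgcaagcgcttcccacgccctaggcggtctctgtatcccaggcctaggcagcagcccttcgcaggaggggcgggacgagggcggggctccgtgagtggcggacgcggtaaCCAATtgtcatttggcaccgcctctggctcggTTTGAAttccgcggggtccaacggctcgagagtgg
Ect2: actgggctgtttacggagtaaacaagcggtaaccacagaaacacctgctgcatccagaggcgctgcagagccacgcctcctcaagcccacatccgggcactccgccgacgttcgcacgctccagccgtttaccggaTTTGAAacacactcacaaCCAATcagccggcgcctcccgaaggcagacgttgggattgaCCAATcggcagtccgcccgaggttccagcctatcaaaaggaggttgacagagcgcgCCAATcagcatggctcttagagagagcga
Spc25: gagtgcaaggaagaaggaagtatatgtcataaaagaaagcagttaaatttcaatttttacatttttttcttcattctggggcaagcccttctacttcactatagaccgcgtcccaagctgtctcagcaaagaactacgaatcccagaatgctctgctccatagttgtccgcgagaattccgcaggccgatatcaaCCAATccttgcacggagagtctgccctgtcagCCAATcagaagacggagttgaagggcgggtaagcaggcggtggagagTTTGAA

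In Cdk1 a CHR element begins 15 bases before the start, and in Prc1 5 bases before it, with CCAAT beginning at -37. In Ccnb2 the CHR letters begin at position 5 and again at -167, with CCAAT boxes beginning at -87, -54 and -21. In Ect2 a CHR begins at -114 and CCAAT boxes at -96, -55 and 2, and in Spc25 the CHR letters end the printed stretch, with CCAAT at -55 and -23. Among the measured genes the median log2 difference was -0.26 over the 23 with the CHR letters (21 lower) and -0.26 over the 10 without (9 lower). For CCAAT the medians were -0.26 over 25 genes with it and -0.26 over 8 without.

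**Figure D2:**
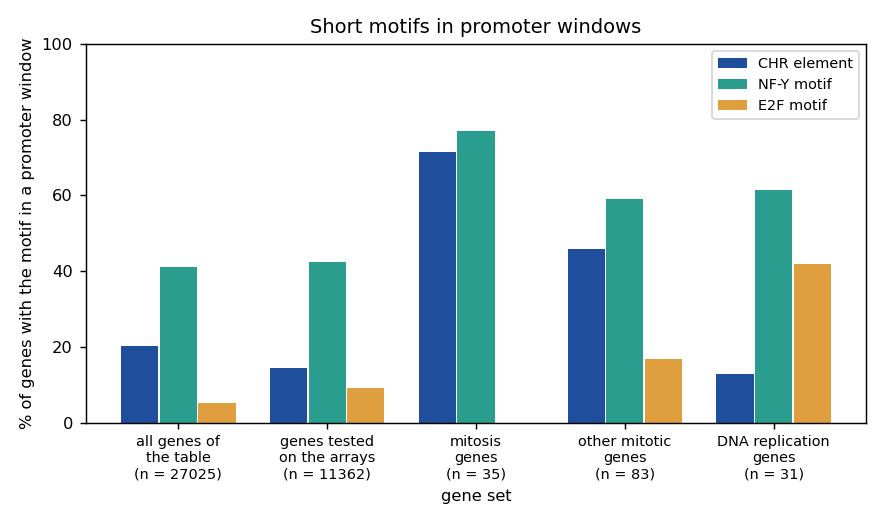
Share of genes, in percent, with each of 3 short motifs on either strand of a 300-base promoter window, for 5 gene sets with the number of genes that have a window. The bar of the CHR element reaches 71.4% in the mitosis genes, 45.8% in the other mitotic genes and 20.2% over all genes. No bar for the E2F motif stands over the mitosis genes.

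Values in single arrays are log2 signals relative to the array's 75th percentile, so 0 is the signal of that percentile and levels are compared only within 1 probe. Values are given for controls 1 to 4 and then for ischemia 1 to 4, and probe positions are those of the array files in mm9. The counts by role below stand beside 57% of all genes lower, and 7.65% lower at an unadjusted p under 0.05. The roles are small and were read from the same 8 RNA samples, so their counts are not independent of each other.

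Of the genes of entry into mitosis, 5 of 6 measured had lower signals in ischemia, of which 4 had an unadjusted p under 0.05. Ccnb2, a B-type cyclin that activates Cdk1 (probe at chr9:70255671-70255730), read 1.42, 1.15, 1.11 and 1.19 in the controls and 0.77, 0.79, 0.49 and 0.81 in ischemia. Every ischemia array lay below every control, and ischemia 3 was the lowest by far. The means were 1.22 ± 0.14 and 0.72 ± 0.15 (SD, n = 4 each), a log2 difference of -0.50 (SE 0.10, limma adjusted p = 0.221). Cdk1, the kinase that drives entry (chr10:68801072-68801131), read -0.36, -0.59, -0.78 and -0.69 in the controls and -1.07, -0.999, -1.19 and -0.89 in ischemia. Here too the groups did not overlap, with control 1 the highest of the 8 (difference -0.43, SE 0.10, limma adjusted p = 0.248). Ccnb1, the other B-type cyclin on the list (chr13:101548722-101548781), read 1.14, 1.11, 0.90 and 1.11 against 0.74, 0.96, 0.60 and 0.93. Ischemia 2 and 4 lay within the control range and ischemia 1 and 3 below it (difference -0.26, SE 0.10, limma adjusted p = 0.401). Its 2 other probes gave -0.33 and -0.02. Ccna2, the A-type cyclin of S phase and early mitosis, differed by -0.27 and Foxm1, a transcription factor of late cell cycle genes, by -0.22 (-0.12 without ischemia replicate 3). Cdc25b, a phosphatase that activates Cdk1, differed by 0.07, the highest value of the list. Its relative Cdc25c was above background on 2 control arrays and 1 ischemia array and was not tested.

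**Figure D3:**
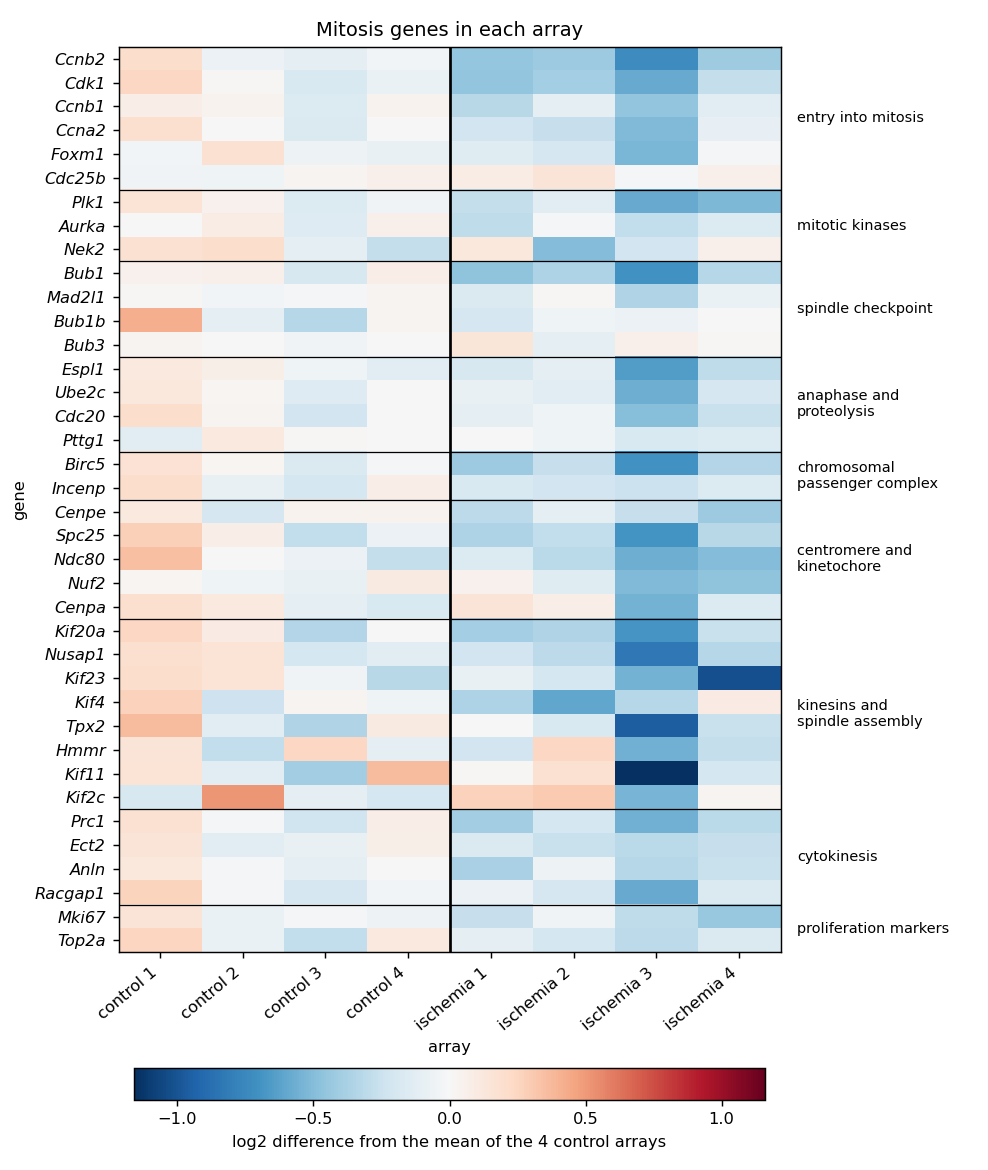
Log2 difference of each of the 38 measured mitosis genes (rows, grouped by role) from the mean of its 4 control values, in each of the 8 arrays (columns), with blue for lower and red for higher. Blue fills most of the ischemia columns and is deepest in ischemia 3, while control 1 is the reddest column.

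All 3 mitotic kinases measured were lower, 1 at an unadjusted p under 0.05. Plk1, which acts in centrosome maturation, spindle assembly and mitotic exit (chr7:129313220-129313279), read 1.52, 1.41, 1.20 and 1.32 in the controls and 1.09, 1.24, 0.78 and 0.84 in ischemia. Only ischemia 2 reached the control range, just above control 3 (difference -0.38, SE 0.12, limma adjusted p = 0.335). Aurka, the centrosomal Aurora kinase (chr2:172181726-172181785), read 0.83, 0.92, 0.68 and 0.88 against 0.53, 0.80, 0.54 and 0.67. Ischemia 2 again lay among the controls, and ischemia 4 lay just under the lowest of them (difference -0.19, SE 0.08, limma adjusted p = 0.467). Nek2, which separates the centrosomes, differed by -0.13, within the spread of either group, and by -0.01 without ischemia replicate 2.

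The spindle checkpoint genes differed among themselves. Bub1, a checkpoint kinase of the kinetochore (chr2:127626988-127627047), read -2.14, -2.13, -2.38 and -2.11 in the controls and -2.66, -2.55, -2.89 and -2.52 in ischemia. The groups did not overlap, with control 3 and ischemia 3 the lowest of their groups (means -2.19 ± 0.13 and -2.66 ± 0.17, SD, n = 4 each). The difference was -0.46 (SE 0.10, limma adjusted p = 0.233). Mad2l1, the Mad2 protein that binds Cdc20 (chr6:66490836-66490895), read 0.76, 0.71, 0.72 and 0.77 against 0.57, 0.75, 0.39 and 0.66. Its controls lay close together, ischemia 2 among them and the other 3 below (difference -0.15, SE 0.08, limma adjusted p = 0.564). Without ischemia replicate 3 the difference was -0.08, and a second probe gave 0.02. Bub1b, or BubR1, a checkpoint protein that inhibits Cdc20, differed by -0.08 and Bub3, which brings Bub1 and BubR1 to the kinetochore, by 0.03. Neither value keeps its sign in every setting: Bub1b was at 0.06 without control replicate 1, and Bub3 at -0.01 without ischemia replicate 1. The checkpoint kinase Ttk, or Mps1, was above background on 0 control arrays and 1 ischemia array and was not tested.

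All 4 genes of anaphase and mitotic proteolysis were lower, 1 at an unadjusted p under 0.05. Espl1, the separase that cleaves cohesin (chr15:102153644-102153882), read -2.15, -2.20, -2.31 and -2.39 in the controls and -2.45, -2.38, -2.91 and -2.56 in ischemia. Ischemia 2 lay just above control 4, the other ischemia arrays below all controls (difference -0.31, SE 0.12, limma adjusted p = 0.407). Without ischemia replicate 3 the difference was -0.20. Ube2c, the ubiquitin-conjugating enzyme of the anaphase-promoting complex (chr2:164598016-164598075), read 1.00, 0.91, 0.73 and 0.88 against 0.79, 0.75, 0.31 and 0.69. The groups overlapped in ischemia 1 and 2, and ischemia 3 stood well below the rest (difference -0.25, SE 0.11, limma adjusted p = 0.482). Without ischemia replicate 3 it was -0.14, and a second probe gave -0.18. Cdc20, the activator of that complex and the target of the checkpoint, differed by -0.23 (-0.14 without ischemia replicate 3), and Pttg1, the securin that holds separase back, by -0.10 (-0.06 without control replicate 2).

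Of the chromosomal passenger complex, which corrects faulty attachments, both measured members were lower. Birc5, or survivin (chr11:117716978-117717037), read 2.56, 2.41, 2.22 and 2.37 in the controls and 1.97, 2.12, 1.68 and 2.05 in ischemia. No ischemia array reached the lowest control (difference -0.43, SE 0.11, limma adjusted p = 0.265). Its 2 other probes, which lie elsewhere in the gene, gave -0.46 and -0.48. Incenp, the scaffold of the complex (chr19:9946893-9946952), read 2.78, 2.48, 2.37 and 2.64 against 2.39, 2.34, 2.32 and 2.41. The ischemia values were tightly grouped around the lowest control (difference -0.20, SE 0.09, limma adjusted p = 0.474). Without control replicate 1 the difference was -0.13, and an overlapping probe gave -0.18. Aurkb, the kinase of the complex, was above background on 0 control arrays and 1 ischemia array and was not tested.

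All 5 measured genes of the centromere and kinetochore were lower, 3 at an unadjusted p under 0.05. Cenpe, a kinetochore motor that carries chromosomes to the spindle equator (chr3:134936387-134936446), read 0.97, 0.67, 0.90 and 0.90 in the controls and 0.55, 0.75, 0.59 and 0.44 in ischemia. The overlap came from a low control 2 and a high ischemia 2 (difference -0.28, SE 0.09, limma adjusted p = 0.351). Spc25, a subunit of the Ndc80 complex that grips microtubules (chr2:69031953-69032012), read 2.69, 2.49, 2.13 and 2.35 against 2.06, 2.13, 1.72 and 2.09. Ischemia 2 matched control 3, and the other 3 ischemia arrays lay below every control (difference -0.42, SE 0.14, limma adjusted p = 0.353). The other subunits of that complex on the list, Ndc80 and Nuf2, differed by -0.38 and -0.27, so all 3 pointed the same way. Cenpa, the histone H3 variant of centromeres, differed by -0.12, and by 0.02 without ischemia replicate 3. Cenpf, a large kinetochore protein, was above background on 0 control arrays and 1 ischemia array and was not tested.

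The kinesins and spindle assembly factors held the widest spreads of the 38 genes, an SD of 0.34 in the controls for Kif2c and of 0.60 in ischemia for Kif11. Of 8 measured, 7 were lower and 2 had an unadjusted p under 0.05. The median was -0.32. Kif20a, a kinesin of the central spindle, read -0.35, -0.49, -0.93 and -0.59 in the controls and -0.99, -0.94, -1.28 and -0.85 in ischemia. A low control 3 overlapped ischemia 4 (difference -0.42, SE 0.14, limma adjusted p = 0.353). Nusap1, a protein that bundles spindle microtubules (chr2:119475072-119475131), read -0.29, -0.32, -0.68 and -0.60 against -0.70, -0.77, -1.30 and -0.80. The groups did not overlap, although the highest ischemia array and the lowest control were close (difference -0.42, SE 0.15, limma adjusted p = 0.386). Kif23, the kinesin of the centralspindlin complex, differed by -0.47, Tpx2, which activates Aurora A on the spindle, by -0.35, the chromokinesin Kif4 by -0.30, Kif11, the motor that pushes the spindle poles apart, by -0.29 and the hyaluronan and microtubule binding protein Hmmr by -0.21. For these 5 the unadjusted p was above 0.05, and each moved by over 1.5 times with 1 array left out. Without ischemia replicate 3 Kif11 was at -0.00313, Tpx2 at -0.14 and Hmmr at -0.09. Kif11 was at -0.17 without control replicate 4 and -0.45 without ischemia replicate 2, Tpx2 at -0.23 without control replicate 1, and Hmmr at -0.12 without control replicate 3 and -0.35 without ischemia replicate 2. Kif23 was at -0.28 without ischemia replicate 4 and Kif4 at -0.20 without ischemia replicate 2. Tpx2 had a second probe with a difference of 0.40 (SE 0.52), and the mean of both probes gave 0.02. Kif2c, a kinesin that takes microtubules apart, differed by 0.02, and between -0.08 and 0.20 with 1 array left out. It was above background on 4 control and 3 ischemia arrays, the other 37 measured genes on all 8.

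All 4 genes of cytokinesis were lower, 3 of them at an unadjusted p under 0.05. Prc1, which bundles the microtubules of the central spindle (chr7:87461048-87461107), read 1.88, 1.70, 1.47 and 1.78 in the controls and 1.31, 1.51, 1.15 and 1.39 in ischemia. Ischemia 2 lay just above control 3 and the others below all controls (difference -0.37, SE 0.11, limma adjusted p = 0.310). Ect2, the exchange factor that switches on RhoA at the cleavage furrow (chr3:26996278-26996337), read -0.83, -1.11, -1.06 and -0.91 against -1.15, -1.23, -1.29 and -1.24. The groups did not overlap, and the ischemia values were close together (means -0.98 ± 0.13 and -1.23 ± 0.06, SD, n = 4 each; difference -0.25, SE 0.08, limma adjusted p = 0.324). The furrow scaffold Anln and Racgap1, the partner of Kif23 in centralspindlin, each differed by -0.26, Racgap1 by -0.15 without ischemia replicate 3.

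Both proliferation markers were lower, 1 at an unadjusted p under 0.05. Mki67, the Ki-67 protein that coats mitotic chromosomes (chr7:142881591-142881650), read 1.90, 1.68, 1.74 and 1.70 in the controls and 1.49, 1.71, 1.46 and 1.32 in ischemia. Ischemia 2 was at the level of the controls and the other 3 were below all of them (difference -0.26, SE 0.09, limma adjusted p = 0.386). A second Mki67 probe gave -0.36. Top2a, the topoisomerase that untangles replicated DNA (chr11:98855522-98855581), read 0.03, -0.30, -0.51 and -0.11 against -0.33, -0.42, -0.53 and -0.39. The controls were spread widely, and only ischemia 3 lay below all of them (difference -0.20, SE 0.12, limma adjusted p = 0.591). Without control replicate 1 it was -0.11.

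**Figure D4:**
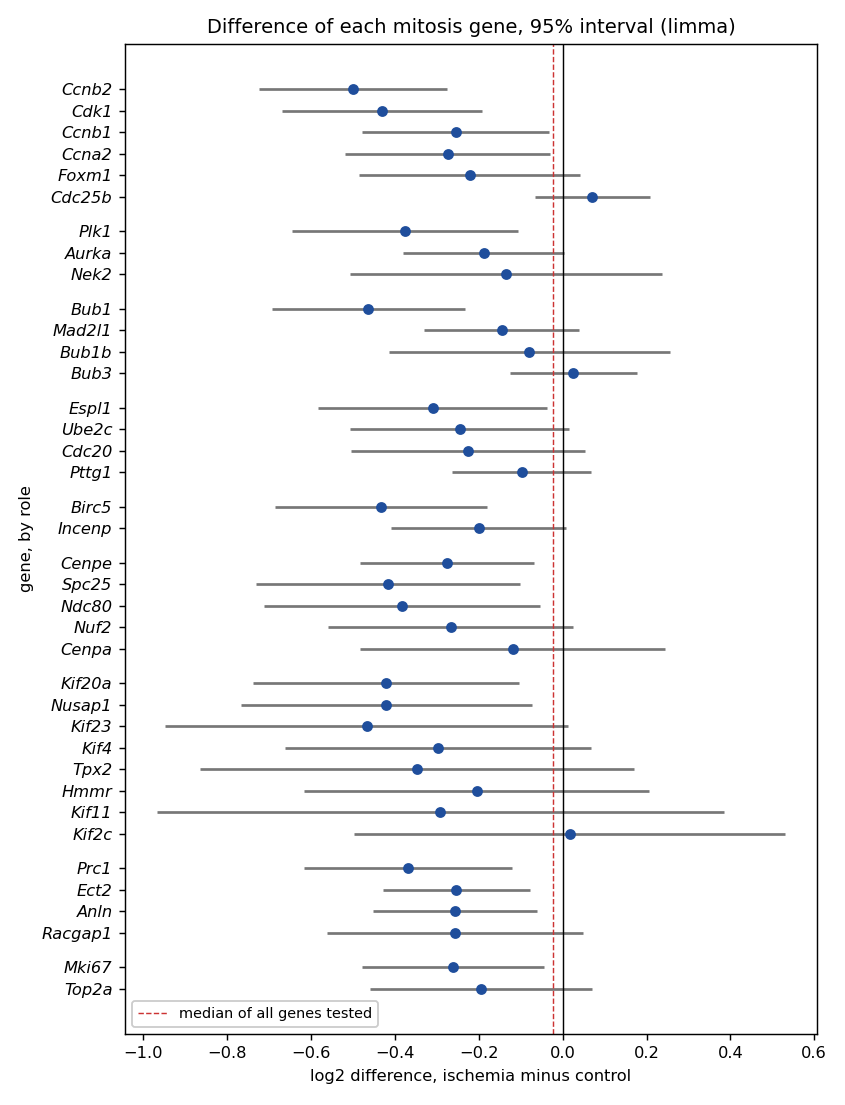
Log2 difference, ischemia minus control, of each measured mitosis gene (points) with its 95% interval from limma (bars), grouped by role; the dashed line marks the median of all genes tested, -0.02. The points of 35 of the 38 genes lie below 0, and 17 intervals do not reach 0.

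The differences ran along whole arrays. Relative to the control means, the median over the 38 genes was 0.16, 0.00, -0.13 and -0.01 in controls 1 to 4 and -0.18, -0.16, -0.54 and -0.26 in ischemia 1 to 4. All 4 ischemia medians lay below the lowest control median, ischemia 2 narrowly so and ischemia 3 by far. Ischemia 3 was the lowest of the 8 arrays in 28 of the 38 genes, and control 1 the highest in 26. Over all genes the same medians lay between -0.03 and 0.02. In 15 genes 3 ischemia arrays lay below every control, in 7 genes 2, in 8 genes 1 and in 2 genes none. The corresponding shares of all genes were 8.9% for 3 arrays, 15.1% for 2, 27.4% for 1 and 44.3% for none. Without ischemia replicate 3 the median log2 difference was -0.19, with 34 genes lower and 13 at an unadjusted p under 0.05. Without control replicate 1 it was -0.22, with 35 lower. Of the single genes, 20 of the 38 moved by over 1.5 times when 1 array was left out, 12 of them without ischemia replicate 3.

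**Figure D5:**
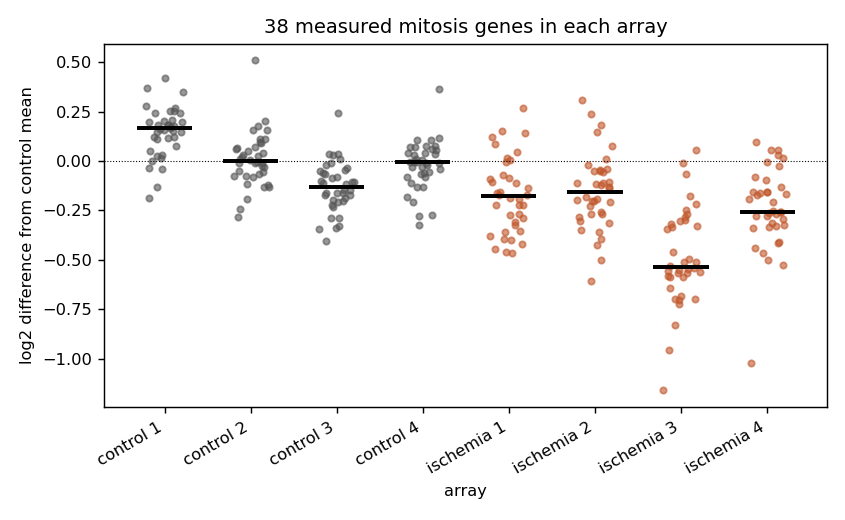
Log2 difference from the control mean (vertical axis) of the 38 measured mitosis genes in each of the 8 arrays; points are genes and bars are medians. The medians of ischemia 1 to 4 are -0.18, -0.16, -0.54 and -0.26, below the lowest control median of -0.13.

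Other genes of mitosis were taken from a list of 97 with none of the 42. Of 87 measured, 75 were lower (86.2%), against 57% of all genes. Of the 87, 21 had an unadjusted p under 0.05, all of them lower (24.1%), against 7.65% of all genes lower at that p. The median was -0.17, and 0 passed the adjusted threshold in limma. Without control replicate 1 the median was -0.099, with 64 lower and 16 at that p, and without ischemia replicate 3 it was -0.11, with 71 lower. Kntc1, a subunit of the checkpoint's RZZ complex, differed by -0.53 and Cks2, a small subunit of Cdk1 complexes, by -0.39 (limma adjusted p = 0.221 each). By role the medians ran from -0.29 over 8 genes of the checkpoint and of cohesin protection and -0.26 over 9 of cytokinesis to -0.06 over 7 condensin genes and -0.06 over 15 of the anaphase-promoting complex. In condensin 0 of 7 genes had an unadjusted p under 0.05, against 10.9% of all genes, a list too short to tell 0 from that share. Of the 15 genes of the anaphase-promoting complex, 4 (26.7%) were lower at that p, against 7.65% of all genes. In the arrays the list had medians of 0.07, 0.01, -0.09 and -0.01 in the controls and -0.10, -0.10, -0.26 and -0.13 in ischemia, with control 1 highest and ischemia 3 lowest as for the 42.

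Genes of DNA replication act before mitosis. Of 38 measured, 33 were lower, 9 at an unadjusted p under 0.05 and 0 higher at that p, with a median of -0.10 (-0.16 without control replicate 3). Among all genes tested 57% were lower, and 7.65% were lower at that p. Tk1, the thymidine kinase of S phase, differed by -0.62 and Uhrf1, which maintains DNA methylation, by -0.38 (limma adjusted p = 0.151 and 0.243). In ischemia 3 the median of this list was -0.14, close to that of ischemia 1 at -0.12, whereas the mitosis genes in ischemia 3 stood apart at -0.54. Of 16 regulators of mitotic transcription (the DREAM and MuvB subunits, the retinoblastoma family and NF-Y) 7 were lower and the median was 0.07. Rbl1, or p107, differed by -0.39 and the MuvB subunit Lin37 by 0.18. Of 12 genes of cell cycle exit 5 were lower, with a median of 0.02. In that list Gadd45b differed by -0.28 and Cdkn1c, or p57, an inhibitor of cyclin-dependent kinases, by 0.30. In each of these 3 lists 0 genes passed in limma. At an unadjusted p under 0.05, in either direction, there were 4 of the 16 regulators (2 lower, 2 higher) and 3 of the 12 exit genes (2 lower, 1 higher), against 10.9% of all genes.

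Markers of the cells that could carry these transcripts differed between lists. Among all genes tested 57% were lower, and 7.65% were lower at an unadjusted p under 0.05. Of 12 radial glia markers 8 (66.7%) were lower, 3 of them at that p, and 4 were higher. Their summed signal was 281 to 297 in the controls and 254 to 274 in ischemia, but Fabp7 alone made up 57% to 64% of it. A sum without the brightest gene, a setting chosen after seeing the data, was 101.3 to 114.3 in the controls and 97.1 to 112.1 in ischemia over the other 11 genes, which overlap. Nes differed by -0.23 and Fabp7 by -0.22 with separate groups, and Tnc, the third marker at that p, by -0.51 with overlapping groups. Pax6 and Sox2, which are not named by the rule of smallest p, differed by 0.07 and -0.01. For intermediate progenitors (8 of 10 measured) the sums were 24.1 to 28.5 and 25.2 to 28.5, for interneuron progenitors (7 of 8) 20.1 to 23.5 and 20.8 to 22.5, and for oligodendrocyte precursors (8 of 8) 57.3 to 60.9 and 58.3 to 66.0. These 3 overlapped between the groups. Of 10 erythroid markers 6 were measured and all 6 were lower, 3 at an unadjusted p under 0.05, with overlapping sums of 198 to 359 and 148 to 249. The part of these cells in the lower mitosis transcripts was not tested.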

How the data were processed

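The values analysed are the spot intensities that the authors deposited for 8 arrays, on a linear scale: the processed signal, corrected for background by Agilent Feature Extraction 10.7.3.1 (software and version per the submitters' processing notes and, per the file headers, for each scan). The mean signal and median background, also intensities deposited by the authors, served an alternative, as did the authors' deposited value table, a ratio of the processed signal to 1 constant per array with no stated meaning. Labelling with Cy3 started from 50 ng of RNA, per the labels' protocols.

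Control spots and outlier spots were left out, spots of a probe were averaged, and log2 values were set relative to the 75th percentile of each array (305.6 to 393.3). A probe was kept when well above background on at least 4 of 8 arrays (27131 probes), and the brightest kept probe stood for its gene. Names were updated with RefSeq genes of GRCm38.p6 (27235 probes by accession, 3581 by symbol, 565 by an older symbol, 24300 by the name in the files). Exons and UTRs under the probes were not analysed here. Groups were compared with limma 3.58.1 (lmFit, eBayes; R 4.3.3), and p-values were adjusted over 19751 genes by Benjamini-Hochberg, with a threshold of 0.05. The code was tested on simulated data.

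The 42 genes and the other lists were chosen with earlier results of these data known, so no test over a list is given. All 42 are named. Array values are given for the 2 of smallest p in each role and for Mki67, Top2a, Ccnb1 and Cdk1. From each other list the 2 genes of smallest p are named. Further genes named from the radial glia and endothelial lists fall outside this rule. The number of arrays limits the precision. Promoters on chromosome 18 are not printed. The alternatives changed the background correction, the scaling, the filter, the probe rule or the variance model, used array weights, the replicate block or the value table, or left arrays out. Marker sums without the brightest gene were added after seeing the data.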

Additional observations from a re-analysis of the deposited data

Results flagged for a closer look

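In 4 of 78 sets of 4 arrays, 1 array stood apart from the other 3 of its group by Dixon's test at the 95% level, which chance passes in about 1 in 20 sets, or 3.9 of 78. Ccnb2 was low in ischemia replicate 3 (gap over range 0.886). Bub1 was low in control replicate 3 (0.889), as was Ccnb1 (0.846). Kif2c, near background on 1 array, was high in control replicate 2 (0.874).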

How the results depend on the processing

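Under 20 other settings 0 of the mitosis genes passed the adjusted threshold in limma, between 34 and 37 were lower, and the median log2 difference lay between -0.35 and -0.19. With 1 array left out, 34 to 37 were lower, the median lay between -0.31 and -0.19, and 11 to 22 were at an unadjusted p under 0.05, the fewest (11) without control replicate 1. Signs turned for 5 genes, none of them at an unadjusted p under 0.05 in the report: Cenpa (-0.208 to 0.023 with 1 array left out, highest without ischemia replicate 3), Tpx2 (0.024 with the mean of its probes), Bub1b (-0.190 to 0.060 with 1 array left out, highest without control replicate 1), Bub3 (-0.00654 with array weights, -0.027 without ischemia replicates 1 and 4, and -0.013 to 0.071 with 1 array left out) and Kif2c (-0.019 with normexp, -0.12 without ischemia replicates 1 and 4, and -0.081 to 0.202 with 1 array left out). The causes were not tested. Over all genes 0 to 2 passed, and 20 with a trended and robust variance, of which 0 were mitosis genes and 1 a DNA replication gene. Array numbers are the labels' own and are not said to pair samples: correlations of same-numbered samples were 0.08, -0.06, 0.29 and 0.39, and not every sample correlated best with its own number. With the replicate block 24 mitosis genes were at an unadjusted p under 0.05 and 0 passed. The share of all genes at that p was not counted under the other settings, so changes in these counts cannot be set against it. The 4 genes near background have values only without the filter on dim probes.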

Other observations

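Markers of vascular, glial, neuronal and immune cells differed in both directions, and 0 of them passed in limma. Among all genes tested 57% were lower, 7.65% were lower at an unadjusted p under 0.05 and 3.25% were higher at that p. Of 11 endothelial markers measured 7 were higher, 3 at that p, and 4 lower, 1 at that p. Their summed signals were 43.0 to 46.6 in the controls and 39.5 to 48.2 in ischemia. The transporter gene Slco1a4 is 1 of the 3 higher at that p. It was well above background on 0 of 4 control and 4 of 4 ischemia arrays, so it was kept only through the ischemia group. The surface gene Ly6c1 differed by 0.84 with ischemia above every control. Kdr, the receptor for vascular endothelial growth factor, differed by -0.31 with ischemia below every control, and the junction genes Cldn5, Cdh5 and Pecam1 differed by 0.06, -0.06 and 0.02 (Kdr and these 3 were chosen after their values were seen). Of 7 pericyte markers 5 were lower, 2 at that p, and 2 were higher. Among them Notch3 differed by -0.34 and Rgs5 by -0.33, and the groups did not overlap for Notch3. The summed signals of the pericyte markers were 7.61 to 9.32 in the controls and 7.07 to 8.47 in ischemia, which overlap. Without Vtn, the brightest, a setting chosen after seeing the data, they were 5.608 to 6.81 and 5.28 to 5.599, which do not overlap. Of 10 microglia markers 6 were higher, 4 at that p, and 4 lower, 2 at that p. The complement gene C1qa differed by 0.42 and the protease gene Ctss by 0.34. Of 8 astrocyte markers 5 were higher, 2 at that p, and 3 were lower. Sparcl1 and Aldoc differed by 0.27 and 0.26. Of 10 neuronal markers 7 were lower and 3 higher, 0 of them at that p. Dcx and Tubb3 differed by 0.16 and -0.11 with separate groups.

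The intermediate progenitor genes Dll3 and Mfap4 differed by 0.17 and -0.32, the interneuron progenitor genes Dlx1 and Dlx6 by 0.13 and -0.22, and the oligodendrocyte precursor genes Sox10 and Pdgfra by 0.23 and 0.11, each with overlapping groups. The erythroid genes Hba-a2 and Hbb-b2 differed by -0.54 and -0.57, the meningeal gene Igf2 by 0.34 and the choroid plexus gene Enpp2 by 0.28.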
